A study of Canis lupus familiaris with 14 samples.

Results

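Gene expression in canine lymphoma was compared with that in normal canine lymph node, with attention to genes that lay on the same side of the normal nodes in every lymphoma, whether labelled B-cell or T-cell. Lymphomas were all 10 arrays titled B-cell lymphoma (7 arrays) or T-cell lymphoma (3 arrays), and normals were the 4 arrays titled normal lymph node, so that all 14 of the 14 arrays of the series entered the comparison. The 4 normal arrays came from 3 dogs, since 3024l and 3024r carry the number of 1 dog, and these were averaged. Each array gave a signal per probe set, a group of short probes for a transcript, and the 9216 genes whose signal reached 100 in 3 or more of the 13 dogs were tested. A gene was called when limma's adjusted p was under 0.05, and it was separated when all 10 lymphomas lay above, or all 10 lay below, all 3 normal dogs. Of the genes tested, 301 were both called and separated, 79 higher and 222 lower in lymphoma.

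The lymphomas arose naturally in pet dogs, were untreated by any agent of the experiment, and were sampled by fine needle aspirate before a PI3K inhibitor was given. The B-cell label was carried by FS21 (Pitt Bull Terrier/Lab. Retriever Mix), NE41 (Boxer/Pitt Bull Terr. Mix), NE42 (Labrador Retriever), RB03 (Pointer), RB07 and RB10 (Boxer) and RB16 (Chesapeake Bay Retriever), and the T-cell label by FS22 (Beagle), FS25 (Boxer) and NE45 (Golden Retriever). The study's methods class the tumours by CD3 and CD79a staining and record earlier chemotherapy for FS21, RB07, FS22 and FS25. The normal dogs 3024, 63 and 2970 were Beagles of a research colony to which no treatment was applied, and ages, which the labels do not give, are not used here. The lymphomas came from 3 clinics and the normals from the colony, so breed, place of sampling and disease cannot be told apart across the groups, and the 1 Beagle lymphoma, FS22, is given on its own beside the main results. The study's methods describe fine needle aspirates for both groups, so by that account the manner of sampling was the same. The labels, however, call the normal samples lymph node tissue and the lymphomas aspirates. Only if the labels were right would the manner of sampling be impossible to tell apart from disease.

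A normal lymph node holds lymphocytes in a scaffold of fibroblastic stromal cells, vessels and lymphatics, with macrophages that line its sinuses and take up debris from the lymph. Stromal cells hold lymphocytes in place by secreting chemokines, and plasma cells, the antibody-secreting end state of B cells, lie in the medulla. In lymphoma a clone of dividing B or T cells fills the node. In such bulk samples, fewer cells of a type and less RNA per cell cannot be told apart.

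CD3E and CD79A went against the label in 3 lymphomas. For CD3E, part of the CD3 complex of T cells, the log2 signal was 12.11 in RB07 and 12.54 in RB10, both labelled B-cell, and 7.22 to 9.29 in the other 5 arrays of that label. CD79A, a chain of the B-cell receptor, had a log2 signal of 8.06 in RB07 and 8.11 in RB10. FS22, labelled T-cell, had 8.80 for CD3E and 10.09 for CD79A, against 12.48 and 2.55 in FS25 and 12.56 and 7.87 in NE45. MS4A1, which encodes CD20, gave a mixed picture. It was above 12 on the log2 scale in FS21, NE41, NE42, RB03 and RB16, 2.89 in RB07, 10.40 in RB10, 4.90 in FS22, 6.48 in FS25 and 10.89 in NE45, with 9.88 to 11.17 in the normals, so it followed the label in FS22. CD3G was 14.49 in RB07 and 14.75 in RB10 against 11.17 in FS22. The RNA of 3024l also stood apart, with a ratio of the 3′ to the 5′ probe set of GAPDH of 23.2, against 3.30 to 8.94 on the other 13 arrays. No difference between lymphomas and normals was detected in that ratio, in the ratio for actin or in the median signal of an array (exact permutation test over the 286 assignments of the 13 dogs, two-sided, adjusted p = 0.563, 0.357 and 0.563, where 0.0035 is the smallest p the design allows). The lymphoma counts are given below without these 3 lymphomas and with 3024r alone for its dog.

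Of the 9216 genes, limma called 337 (3.66%), of which 100 (1.09%) were higher and 237 (2.57%) were lower in lymphoma. Separation alone, with no regard to the test, held for 704 genes (7.64%), 229 above and 475 below. Genes both called and separated numbered 301 (3.27%), with 79 above (0.857%) and 222 below (2.41%), and in 239 of the 301 the lymphomas also lay outside all 4 normal arrays taken singly. The filter also admits genes that are bright in the 3 normal dogs alone, and with a signal of 100 or more required in 6 of the 13 dogs the calls were 105 higher and 171 lower. Of the genes named below, at least CCL14, CD209, CD8B, CFP, DCN, FAM13C, LRIG3, SHE, TPC3 and VSIG4 did not pass that stricter filter. The list counts below use the first filter. The median log2 difference was −2.55 over the 222 lower genes and 1.33 over the 79 higher genes, against −0.02 over all genes tested. In 114 of the 222 lower genes the mean lymphoma signal was under 100, and in 22 of the 79 higher genes the mean normal signal was. With signals under 100 raised to 100 the medians were −1.88 and 1.12. After quantile normalization, which moved the median difference of all genes to 0.06, the split of calls was 150 higher and 228 lower.

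**Figure D1:**
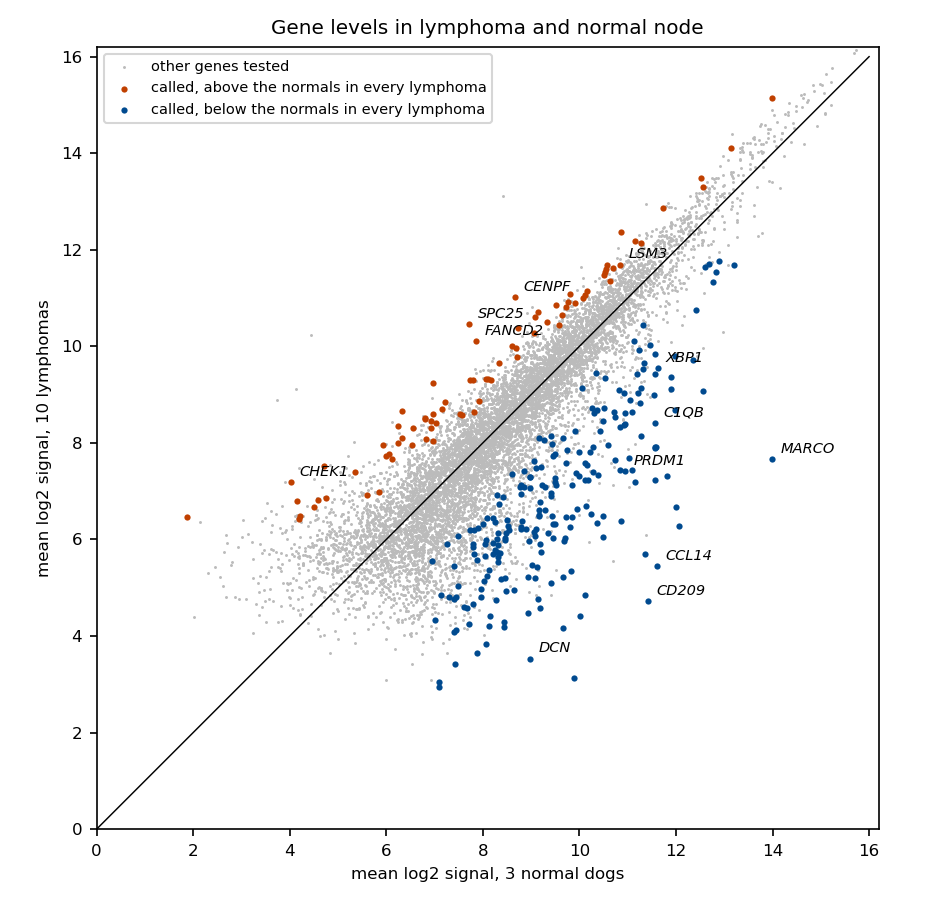
Mean log2 signal in the 10 lymphomas (vertical axis) against that in the 3 normal dogs (horizontal axis) for the 9216 genes tested, with the line of equal levels. The 222 blue genes, below the normals in every lymphoma, have a median difference of −2.55, and the 79 orange genes above the normals one of 1.33, both before signals under 100 are raised.

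The number of calls rested on the few normal dogs. Without dog 2970 only 3 genes were called, without dog 63 there were 84 and without dog 3024 there were 61. All of them were also separated, but from the remaining normal dogs only. Of the 84 genes 70 were among the 301, and of the 61 genes 54 were. Leaving out single lymphomas gave between 223 calls, without NE42, and 420, without RB07. With 3024r alone for its dog 455 genes were called and 404 were called and separated, and with 3024l alone the numbers were 199 and 180. Without RB07, RB10 and FS22, a setting chosen after the data were seen, 273 genes were called and 269 were called and separated, 198 of them among the 301. The 3 genes still called without dog 2970 were C1QB, CHEK1 and C4H5orf34, and the last, named here because it stayed, had the smallest adjusted p of all genes (8.4e-05) with log2 signals of 5.69 to 7.56 in lymphoma and 1.41 to 2.21 in the normal dogs, nearly all of them under a signal of 100.

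**Figure D2:**
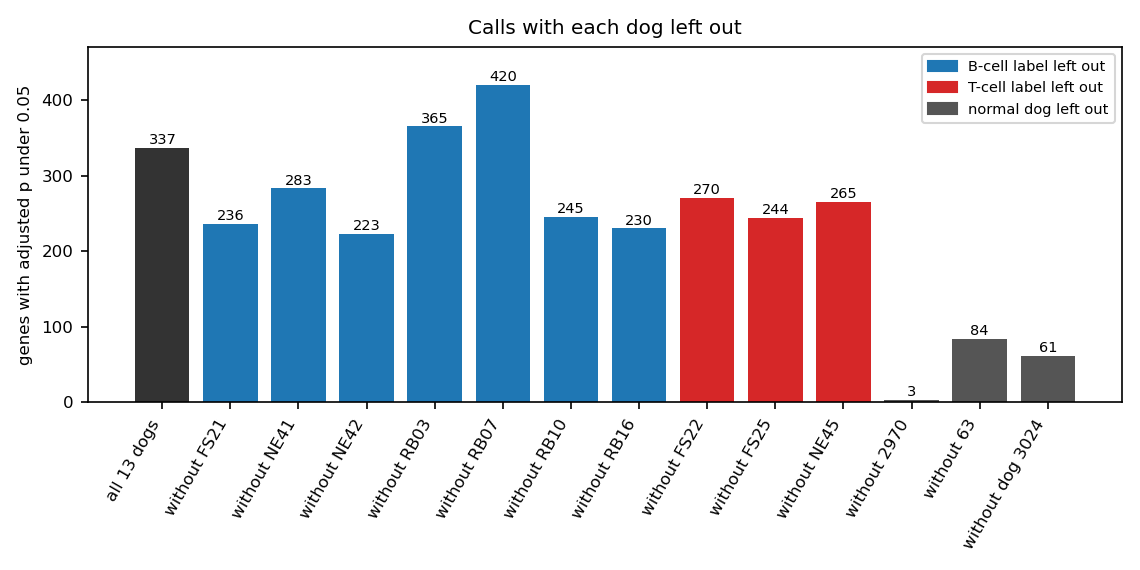
Number of genes called by limma (adjusted p under 0.05, vertical axis) with all 13 dogs and with each dog left out in turn. The bar falls from 337 to 3 without normal dog 2970, and stays between 223 and 420 without any single lymphoma.

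Node macrophage genes were lower in lymphoma. All 15 tested markers of 18 listed were lower on average, 10 fell and were separated, none rose, and the median log2 difference was −2.55, against −0.02 over all genes tested. Over all genes tested, 2.57% were called lower and 2.41% were also separated, which holds beside the other lists of falls too. MARCO, a scavenger receptor of sinus macrophages, had log2 signals in lymphoma of 4.00 (lowest), 7.81 (median) and 10.73 (highest), and of 12.71, 14.21, 13.50 and 15.0045 in 3024l, 3024r, 63 and 2970. No lymphoma reached the normal range of MARCO, and the highest was the Beagle FS22. MARCO thus fell by 6.33 on the log2 scale (SE 0.95, adjusted p = 0.0078), at least 66.9-fold when signals under 100 were raised to 100. CD209, a lectin receptor that binds sugars of microbes, had log2 signals of 2.58, 4.94 and 7.79 in lymphoma (lowest, median, highest) and of 8.83, 12.12, 11.24 and 12.57 in the same order of normal arrays. It was dim in 9 of 10 lymphomas and bright on every normal array, at least 25.5-fold lower (log2 difference −6.71, SE 0.88, adjusted p = 0.0039).

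MRC1, the mannose receptor, had log2 signals of 3.57 to 8.76 in lymphoma and of 10.08, 12.68, 11.99 and 12.66 in the normals, and was at least 28.2-fold lower (adjusted p = 0.0084). Further falls were those of MSR1, a scavenger receptor (log2 difference −4.00), VSIG4, a complement receptor of resident macrophages (−3.45), STAB1, a receptor of sinusoidal cells (−3.45), CD163, the haemoglobin scavenger receptor (−2.83), CSF1R, the receptor for the macrophage growth factor (−2.55), SIGLEC1, which binds sialic acid (−2.43), and LGMN, a lysosomal protease (−2.04). The member with the largest p was CD14, the coreceptor for bacterial lipopolysaccharide, with a log2 difference of −0.68 (SE 0.74, adjusted p = 0.68) and overlapping groups. The summed signal of the 16 list genes on the array was 3809 to 14978 in lymphoma and 16411 to 65877 in the normals, with no overlap, and VSIG4 and ADGRE1 were under 100 in every lymphoma. VSIG4 thus passed the filter through the normal dogs alone. In the dog with the shallowest loss, RB07, the median difference over the 15 genes was −1.32, and in FS25 it was −3.07. The number of calls was again 10 with 3024r alone and without RB07, RB10 and FS22, but it was 4 without dog 3024 or dog 63 and 0 without dog 2970. CD5L, a secreted protein of tissue macrophages that stood in no list, fell as well, from 10.76, 12.37, 11.02 and 12.11 in the normals to 5.33, 7.09 and 9.22 in lymphoma (log2 difference −4.33, adjusted p = 0.010).

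**Figure D3:**
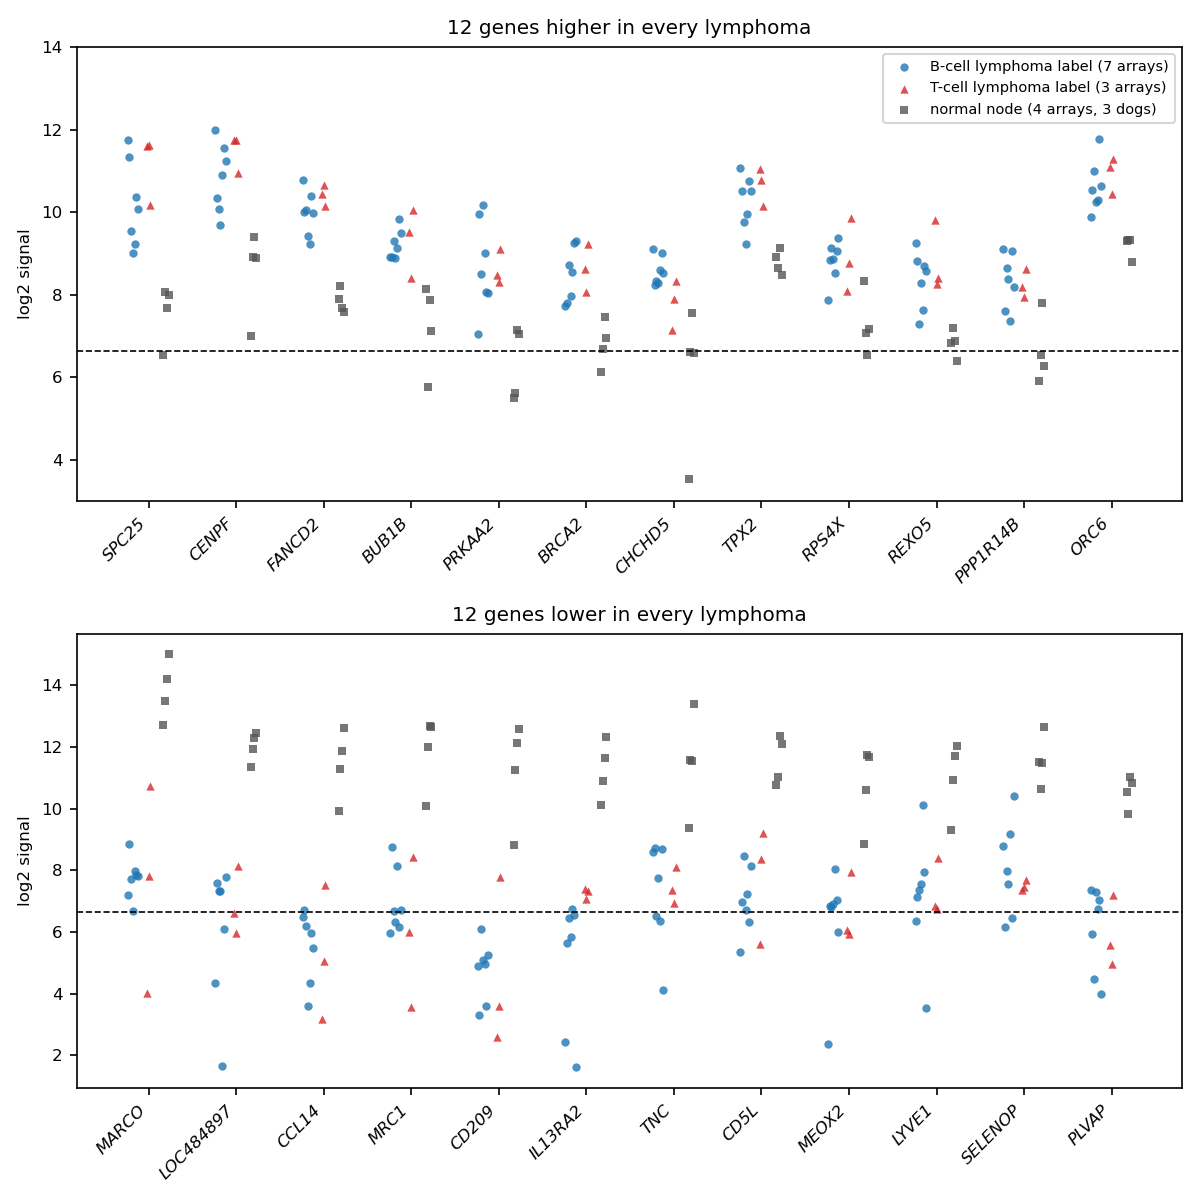
Log2 signal on each of the 14 arrays for the 12 genes with the largest rises (upper panel) and the 12 with the largest falls (lower panel) among the 301, with circles for the B-cell label, triangles for the T-cell label and squares for normal nodes, and a dashed line at a signal of 100. B-cell and T-cell labels overlap in every column but that of IL13RA2. There all T-cell labels (7.07 to 7.41) lie above the highest B-cell label (RB03, 6.74). MARCO spans 4.00 to 10.73 in lymphoma and 12.71 to 15.0045 in the normals.

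Complement genes fell with them. Complement is a cascade of plasma proteins that tags particles for uptake, and its C1q start is made largely by macrophages. Of 14 genes tested, 8 fell, all 8 were separated, none rose, and the median log2 difference was −2.41. C1QB encodes a chain of C1q, and its log2 signals were 7.42, 8.37 and 9.07 in lymphoma (lowest, median, highest) and 11.56, 12.07, 11.04 and 11.84 in 3024l, 3024r, 63 and 2970. The gap of 1.97 between the highest lymphoma and the lowest normal dog exceeded the SD within either group (0.48 and 0.46). C1QB was 8.91-fold lower (log2 difference −3.16, SE 0.33, adjusted p = 0.00096) and was called in all 30 alternative settings. The other chains fell too, with log2 differences of −2.77 for C1QA and −2.65 for C1QC. The differences were −2.56 and −2.14 for C1R and C1S, the proteases that C1q activates, −1.44 for C2, and −3.66 for C7, a part of the membrane attack complex. CFP, which encodes properdin, the stabiliser of the alternative pathway, went from 7.22, 9.33, 9.50 and 9.81 in the normals to 4.40, 5.87 and 7.35 in lymphoma (log2 difference −3.46, adjusted p = 0.0084), and 3024l alone lay within the lymphoma range. C5AR1, a receptor for a complement fragment on myeloid cells, had a difference of 0.04 (SE 0.42, adjusted p = 0.97). The summed signal of the list was 2205 to 7414 in lymphoma and 13991 to 30810 in the normals. Calls numbered 4 without dog 3024 or dog 63 and 1, C1QB, without dog 2970.

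Lysosomal genes changed less than these. Of 20 tested, 3 fell, against 2.57% of all genes tested, none rose, and the median log2 difference was −0.90. LOC403708, which RefSeq lists with the synonym CTSL (cathepsin L) and as a pseudogene, so that its probe sets may also report a near-identical gene, went from 11.40, 12.37, 11.50 and 12.52 in the normals to 7.93, 8.48 and 9.85 in lymphoma, 9.80-fold lower (adjusted p = 0.0039). GRN, which encodes progranulin, fell by 1.88 (adjusted p = 0.015), and its 4 probe sets were not alike, with 2 separated and 2 not, while 3024l alone lay within the lymphoma range. LIPA, the lysosomal lipase, fell by 2.29, and HEXA, a subunit of hexosaminidase, differed by 0.02 (adjusted p = 0.99). Beside these falls, the 5 tested markers of granulocytes and monocytes had a median difference of −2.04 with no call. The summed signal of the 9 genes of that list on the array overlapped, from 6335 to 39712 in lymphoma and from 17719 to 34913 in the normals.

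Vessel and lymphatic markers were lower on average in lymphoma. All 15 tested genes of the endothelial list had a negative difference, 9 were separated, 7 of these fell, and the median was −2.14. CCL14, a chemokine made by vessel walls of the node, had log2 signals of 3.18, 5.71 and 7.51 in lymphoma (lowest, median, highest) and of 9.94, 11.88, 11.30 and 12.60 in 3024l, 3024r, 63 and 2970. That was at least a 29.1-fold fall (log2 difference −6.15, SE 0.80, adjusted p = 0.0039), with FS22 the highest lymphoma. EMCN, a sialomucin of venous endothelium, went from 8.10, 8.71, 8.48 and 8.70 to 5.40, 6.17 and 7.10 (adjusted p = 0.0078). PLVAP, which forms the diaphragms of fenestrated vessels, was at least 12.1-fold lower, and LYVE1, the hyaluronan receptor of lymphatic vessels, at least 12.3-fold lower. For LYVE1 the groups came close, since RB03 had 10.12 and the lowest normal array, 3024l, had 9.31, and the gap of 0.40 appeared only when 3024l and 3024r were averaged. LYVE1 kept its call in 18 of 30 alternative settings. The log2 differences were −2.17 and −2.14 for PECAM1 and VWF, both general markers of endothelium, and −1.66 for EGFL7, a secreted protein of endothelium. SELP, the adhesion molecule stored in the same cells and in platelets, had a difference of −0.41 (adjusted p = 0.81). The summed signal of the list was 2405 to 5387 in lymphoma and 13427 to 26151 in the normals. Without RB07, RB10 and FS22, 5 of the 15 genes were called in place of 7, without dog 3024 or dog 63, 3 were, and without dog 2970, 0 were.

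Stromal genes followed, with more spread between lymphomas. Of 21 tested, 6 fell, 5 of them separated, none rose, and the median log2 difference was −1.84. DCN, which encodes the matrix proteoglycan decorin, had log2 signals of 1.59, 3.22 and 7.46 in lymphoma and of 8.40, 9.62, 9.06 and 8.87 in the normal arrays. RB07 was the lymphoma at 7.46, and the next was NE45 at 5.08. TIMP3, an inhibitor of matrix proteases, went from 9.88, 11.10, 10.61 and 11.44 to 6.55, 7.31 and 9.83, again with RB07 the highest. TNC, the matrix protein tenascin C, was at least 18.4-fold lower, POSTN (periostin) fell by 3.33 on the log2 scale and LUM (lumican) by 3.27. PDGFRA, the growth factor receptor of fibroblasts, fell by 2.21 although RB03 overlapped the normals, and OGN, a small proteoglycan, differed by −0.06 (adjusted p = 0.96). In RB07 the median difference over the 21 genes was 0.01, while in the other 9 lymphomas it lay between −3.00 and −0.94. The summed signal of the stromal list overlapped accordingly, from 2673 to 24652 in lymphoma and from 20129 to 30274 in the normals. Calls numbered 10 without RB07, RB10 and FS22, 8 with 3024r alone, 3 without dog 3024, 2 without dog 63 and 0 without dog 2970.

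The chemokines that hold lymphocytes in the node showed the same direction. Of 10 tested genes of node chemokines and follicular dendritic cells, 3 fell, 2 of them separated, and the median log2 difference was −2.52. CXCL12, made by stromal cells, had log2 signals of 5.69, 7.50 and 8.71 in lymphoma and of 10.29, 11.13, 11.27 and 11.27 in the normals, at least 11.4-fold lower (adjusted p = 0.0084). CCL21, which draws T cells and dendritic cells, went from 11.70, 12.79, 13.65 and 11.78 to 6.98, 8.93 and 11.19, with FS22 the highest (log2 difference −3.48, adjusted p = 0.023). CCL19, which shares its receptor with CCL21, fell by 2.63, and FS22 overlapped the normals, at 11.95 against 11.92 in dog 2970. CCL2, a chemokine for monocytes, varied from 7.14 to 12.33 among lymphomas and differed by 0.09 on average (adjusted p = 0.97). Calls numbered 1 without dog 3024 or dog 63 and 0 without dog 2970.

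Plasma-cell regulators were lower whatever the lineage. PRDM1, the transcription factor that drives plasma cell formation and also acts in effector T cells, had log2 signals of 6.21, 7.47 and 8.36 in lymphoma (lowest, median, highest) and of 10.64, 11.9954, 10.15 and 11.35 in 3024l, 3024r, 63 and 2970. Every lymphoma lay at least 1.79 below every normal dog, and PRDM1 fell by 3.53 (SE 0.43, adjusted p = 0.0036), at least 11.1-fold. XBP1, which turns on the secretory machinery, went from 11.14, 12.36, 11.31 and 11.81 to 8.94, 9.57 and 10.14 and fell by 2.07 (SE 0.26, adjusted p = 0.0039). Against the same normals, the difference for PRDM1 was −3.40 in the B-cell and −3.84 in the T-cell label, and that for XBP1 was −2.10 and −1.99. Those were the 2 calls among 7 plasma-cell genes tested (median −2.07). SDC1, the surface marker of plasma cells, differed by −0.96 (adjusted p = 0.70), with 3024l at 3.02 and the other normal arrays at 7.16 to 7.44. PRDM1 and XBP1 were each called in 29 of 30 alternative settings, the exception being the omission of dog 2970 (adjusted p = 0.052).

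Lymphocyte lists varied between the lymphomas. None of 13 B-cell genes was called, and the median difference per lymphoma ran from −3.86 to 1.76. Of 21 T-cell genes the single call was CD8B, the coreceptor chain of killer T cells, whose log2 signals of 7.10, 7.59, 8.86 and 8.89 in the normals stood above 3.13, 5.01 and 6.39 in lymphoma (adjusted p = 0.023). CD8B was under 100 in every lymphoma, including those with the highest CD3E, so it was at least 3.30-fold lower. It passed the filter through the normal dogs alone, so only a fall could have been called. CD247, a signalling chain of the T-cell receptor complex, ranged from 4.95 to 10.48 in lymphoma around the normals' 7.99 to 8.86. Cytotoxic and NK-cell genes (10 tested), dendritic-cell genes (9) and antigen presentation genes (21) had no call, with medians of −1.66, −0.52 and −0.69. Of the red-cell and platelet genes, 2 passed the filter. ALAS2, the haem synthesis enzyme of red-cell precursors, rose by 2.70 (adjusted p = 0.048) with overlapping groups, GP9, a platelet receptor subunit, differed by 1.69 (adjusted p = 0.38), and the part of blood in these samples was not tested.

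The remaining large falls stood in no list. LOC484897, a gene without a name in the annotation, had log2 signals of 1.64, 6.97 and 8.13 in lymphoma and 11.36, 12.28, 11.92 and 12.46 in the normals, at least 30.4-fold lower (adjusted p = 0.016). IL13RA2, a decoy receptor for interleukin 13, was at least 22.9-fold lower (10.11, 11.64, 10.88 and 12.31 in the normals against 1.61, 6.50 and 7.41), and MEOX2, a homeobox factor of mesoderm and vessels, fell by 4.47 (adjusted p = 0.022). SELENOP, the secreted carrier of selenium, fell by 3.68, with RB16 at 10.42 close to dog 63 at 10.62. KLF6, an immediate early transcription factor, fell by 1.46 (adjusted p = 0.039), the single call of 10 such genes, where EGR2 differed by 0.01. TXNIP, which binds thioredoxin and restrains glucose uptake and growth, fell by 1.51 on the log2 scale (13.29, 13.27 and 13.68 in 3024r, 63 and 2970, and 12.06 in 3024l, against 10.50, 11.77 and 12.39 in lymphoma, adjusted p = 0.039). TXNIP was the single call of 18 cell-cycle brakes and tumour suppressors. It kept its call in 17 of 30 alternative settings, and KLF6 did in 18 of 30. The single calls of their lists, CD8B, KLF6, TXNIP and LSM3, stand against 2.57% called lower and 1.09% called higher over all genes, and nothing is read from them about those lists. CDKN2C, an inhibitor of cyclin-dependent kinases of the same list, ran from 3.38 to 10.21 in lymphoma around normals at 7.40 to 8.40.

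Gains were led by genes of cell division. Of 46 tested mitosis genes 45 had a positive difference, 11 rose, 8 of them separated, none fell, and the median log2 difference was 1.14. Over all genes tested, 1.09% were called higher and 0.857% were also separated. SPC25, a subunit of the kinetochore complex that grips spindle fibres, had log2 signals of 8.9998, 10.27 and 11.74 in lymphoma (lowest, median, highest) and of 6.54, 7.68, 8.07 and 7.98 in 3024l, 3024r, 63 and 2970. It rose by 2.75 (SE 0.60, adjusted p = 0.029), and the lymphomas spread over a wider range than the normals. CENPF, a large kinetochore protein, went from 7.01, 9.41, 8.92 and 8.89 to 9.69, 11.09 and 11.99 (log2 difference 2.35, adjusted p = 0.020). BUB1B, a spindle checkpoint kinase, went from 8.13, 7.87, 5.77 and 7.11 to 8.41, 9.21 and 10.05 (2.28, adjusted p = 0.015).

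The other separated mitosis genes were TTK, a checkpoint kinase (log2 difference 1.74), TPX2, a spindle assembly factor (1.66), the kinesins KIF23 (1.40) and KIF18A (1.38), and CDK1, the kinase that starts mitosis (0.99). SGO1, which guards cohesion of chromatids, TOP2A, which untangles DNA, and NDC80, the partner of SPC25, rose by 1.98, 1.57 and 1.32, and at least 1 lymphoma overlapped the normals in each. UBE2C, which drives exit from mitosis, differed by 0.07 (adjusted p = 0.97), and its 3 probe sets gave differences of 0.30, −0.95 and 0.85. The list's median was above 0 in all 10 lymphomas, from 0.49 in NE41 to 1.87 in NE45, and the summed signal did not overlap, with 21526 to 60223 in lymphoma and 14148 to 18816 in the normals. The calls numbered 12 with 3024r alone, 3 without RB07, RB10 and FS22, 1 without the 4 lymphomas after chemotherapy, 2 without dog 3024 and 0 without dog 63 or dog 2970, while the list's median difference in these settings lay between 0.99 and 1.14.

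DNA repair and replication genes rose in smaller number. Of 30 repair genes 29 had a positive difference and 5 rose, all separated, against 1.09% called higher over all genes tested. FANCD2, the central protein of the Fanconi anaemia pathway for crosslink repair, had log2 signals of 9.24, 10.09 and 10.78 in lymphoma and of 7.89, 7.69, 8.20 and 7.58 in the normals. The gap between groups was 1.04, and FANCD2 rose by 2.25 (SE 0.32, adjusted p = 0.0078), 4.77-fold. It was called in 29 of 30 alternative settings, all but the omission of dog 2970. BRCA2, which acts in homologous recombination, went from 6.13, 7.46, 6.68 and 6.96 to 7.72, 8.58 and 9.29 (1.71, adjusted p = 0.028), and BRCA1, which acts in the same pathway, rose by 1.70. EXO1, a nuclease that resects DNA ends, rose by 2.12. CHEK1, the checkpoint kinase for stalled forks, was at 1.20, 1.88, 4.28 and 6.23 in the normals, all under a signal of 100, and at 6.62, 7.19 and 7.93 in lymphoma, so that its log2 difference of 3.17 amounts to at least 1.46-fold with signals under 100 raised. TDP1, which frees proteins from DNA ends, differed by 0.15 (adjusted p = 0.87). Repair calls numbered 3 without RB07, RB10 and FS22, 2 without dog 63 and 1 without dog 3024 or dog 2970.

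Of 39 replication genes 38 had a positive difference, 3 rose, against 1.09% over all genes tested, none fell, and the median was 0.89. ORC6, a subunit of the origin recognition complex, went from 9.29, 9.32, 9.32 and 8.78 in the normals to 9.89, 10.59 and 11.77 in lymphoma (log2 difference 1.58, adjusted p = 0.032). CDT1, which loads the replicative helicase, rose by 1.09 with little spread in lymphoma (7.74 to 8.40), and PRIM2, a subunit of primase, rose by 1.07 (8.30 to 9.04 in lymphoma). In each of these 2 genes 1 of the 2 probe sets was separated. The probe sets differed by 1.53 and 0.64 for CDT1 and by 1.55 and 0.59 for PRIM2. Calls numbered 4 without RB07, RB10 and FS22 and 0 without any 1 of the normal dogs. RFC1, the large subunit of the clamp loader, did not differ detectably (0.01, SE 0.33, adjusted p = 0.99). In the plot of lists by dog, mitosis, replication and repair lay above 0 in all 10 lymphomas. So did the lists of chaperonin and heat shock, proteasome, respiratory chain, splicing, chromatin and DNA methylation, and red cells and platelets.

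**Figure D4:**
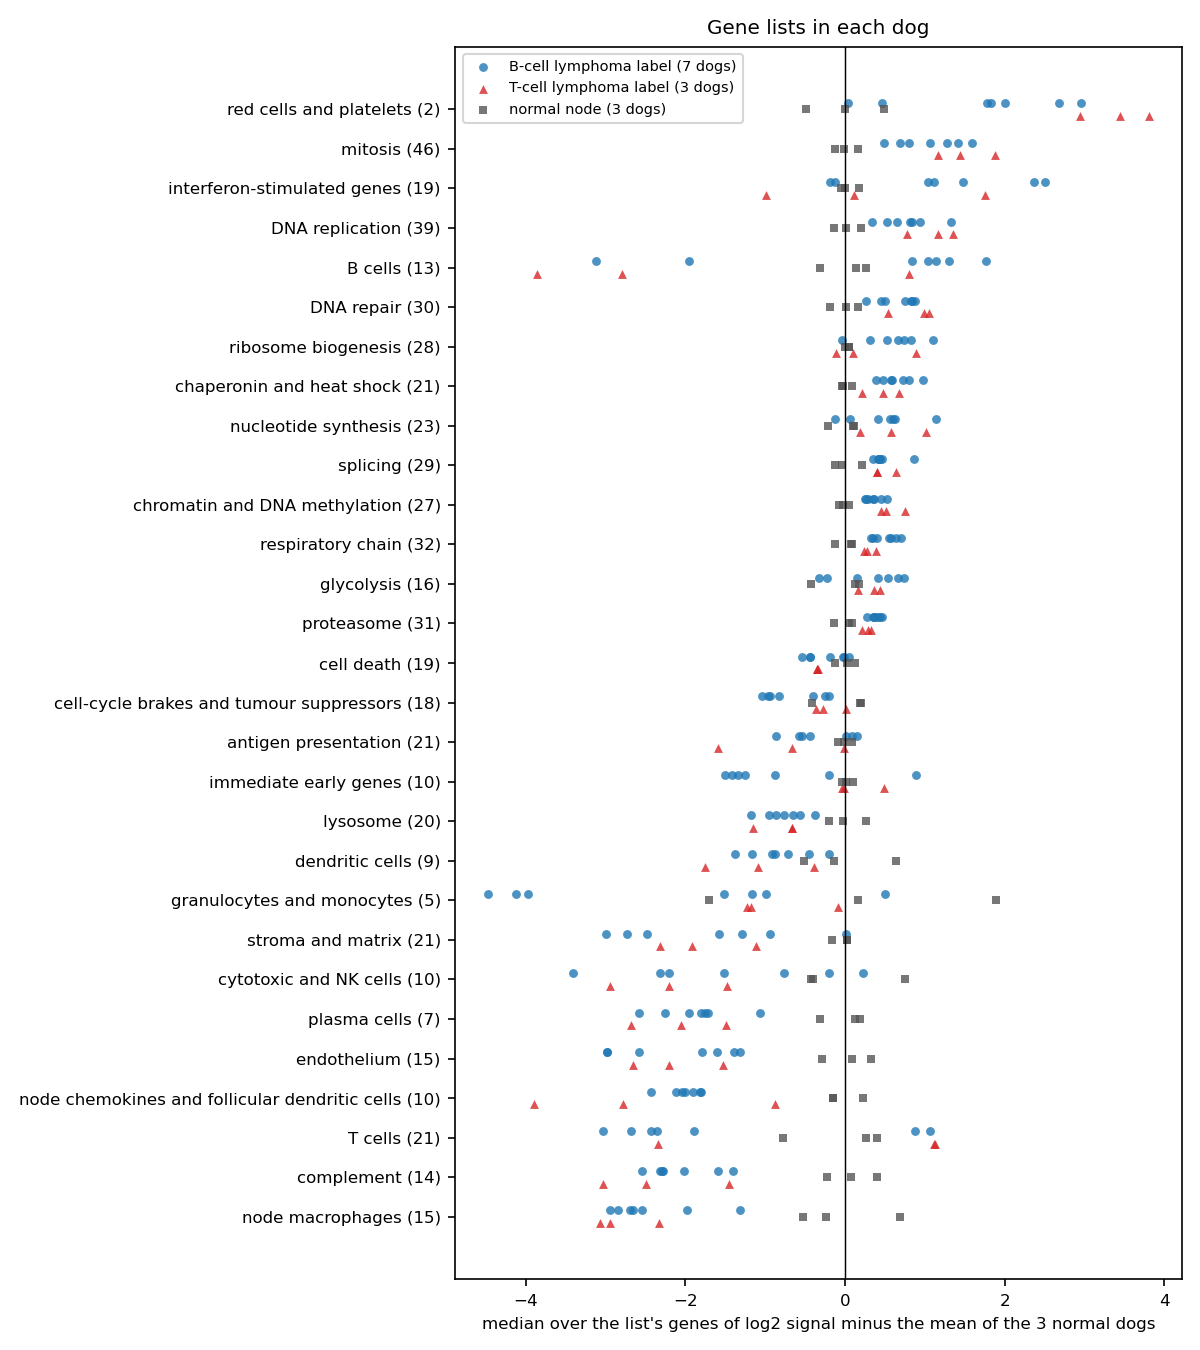
For each gene list (number of tested genes in brackets), the median over its genes of log2 signal minus the mean of the 3 normal dogs (horizontal axis), 1 point per dog. Mitosis runs from 0.49 to 1.87 and node macrophages from −3.07 to −1.32 in the 10 lymphomas, while B-cell and T-cell genes lie on both sides of 0.

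The 5 shared genes with the smallest SD among lymphomas, chosen for that, were all gains. LSM3, a core protein of the U6 splicing particle, had log2 signals of 11.50 to 11.94 in lymphoma and of 10.59, 10.95, 10.95 and 10.81 in the normals. Its SD among lymphomas, 0.14, was the lowest of the 301 genes, and it rose by 0.85 (adjusted p = 0.028). THUMPD3 (SD 0.15), CIAPIN1 (0.15), PPIG (0.16) and TMEM218 (0.19) followed, with rises of 0.72, 1.13, 0.74 and 0.82 and adjusted p values of 0.048 to 0.049. CIAPIN1 serves iron-sulphur cluster assembly, THUMPD3 modifies transfer RNA, and PPIG is a cyclophilin bound to splicing factors. For PPIG the separation held for averaged dogs, while 3024l alone, at 13.04, lay above the lowest lymphoma at 13.02. Of the 3 probe sets of CIAPIN1, 1 was separated, and they differed by 0.73, 2.20 and 0.47. THUMPD3, CIAPIN1, PPIG and TMEM218 kept their call in only 10 to 12 of 30 alternative settings, and LSM3 in 23.

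Among 21 chaperonin and heat shock genes the 2 calls were HSP90AB1, a constitutive heat shock protein, which rose by 1.16 (adjusted p = 0.036), and CCT8, a chaperonin subunit, which rose by 0.92 (adjusted p = 0.034). Of the 5 probe sets of HSP90AB1, 1 was separated, the 3 bright ones differed by 0.63, 0.79 and 1.02, and 1 was dim in all dogs. 3024r, at 10.60, also lay above the lowest lymphoma for HSP90AB1, at 10.48. PSMB3 and PSMD14, subunits of the proteasome's core and lid, rose by 0.93 and 0.86 (both adjusted p = 0.039), the 2 calls of 31. Beside both lists, 1.09% of all genes tested were called higher. HSP90AB1, CCT8, PSMB3 and PSMD14 kept their call in 14 to 20 of 30 alternative settings, and both lists had 0 calls without any 1 of the normal dogs and without RB07, RB10 and FS22. For PSMD14 the normals lay within 11.25 to 11.31 on all 4 arrays and the lymphomas within 11.66 to 12.39. The members with the largest p were HSPA4 (difference 0.14, adjusted p = 0.93) and PSME4 (adjusted p = 0.997), and SNRPA1 (difference 0.10, adjusted p = 0.95) among the 29 splicing genes, of which LSM3 was the single call. Respiratory chain (32 tested, median 0.48), ribosome biogenesis (28, 0.52), nucleotide synthesis (23, 0.43), chromatin and DNA methylation (27, 0.34), glycolysis (16, 0.11), interferon-stimulated (19, 0.96) and cell death genes (19, −0.27) had no call by limma. Interferon-stimulated genes had the widest span of these, with list medians from −0.99 in NE45 to 2.51 in RB16.

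The other large gains stood in no list. PRKAA2, a catalytic subunit of the energy sensor AMPK, had log2 signals of 7.05, 8.48 and 10.18 in lymphoma and of 5.49, 7.14, 5.61 and 7.05 in the normals, so that its rise of 2.34 (adjusted p = 0.039) was called with almost no gap between RB07 and dog 2970. CHCHD5, a mitochondrial protein, rose by 2.10 (adjusted p = 0.013), and 3024l lay at 3.53 with the other normal arrays at 6.59 to 7.55, against a lowest lymphoma of 7.14. PPP1R14B, an inhibitor of a phosphatase, rose by 1.75, but 1 of its probe sets differed by 3.12 and the other by 0.38, and neither was separated on its own. RPS4X, a ribosomal protein with many related sequences in the genome, rose by 1.61 on its 1 probe set. For RPS4X 3024l alone, at 8.33, lay above the lowest lymphoma at 7.86. REXO5, an RNA exonuclease, rose by 1.69 with a gap of 0.10, and it kept its call in 14 of 30 alternative settings. Of the 210 called and separated genes with more than 1 probe set, 205 had all probe sets in the same direction, and in 91 every probe set was separated on its own.

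B-cell and T-cell labels were then compared within the lymphomas. Between the labels limma called 0 of 9216 genes (0%), with 441 at an unadjusted p under 0.05, and the methods' t-test also called 0, with 329. The smallest adjusted p was 0.473. Calls numbered 7 without FS22 and 26 without the 4 lymphomas after chemotherapy. Since RB07, RB10 and FS22 carried markers of the other lineage, this contrast follows the labels and not the markers. Among the 301 shared genes 9 (2.99%) had an unadjusted p under 0.05, against 4.79% of all genes tested. Separation favours genes with little spread among lymphomas, so the share is a description.

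The interval of the label difference was wide for the falls and narrower for the rises. C1QB differed by 0.03 between B-cell and T-cell labels (95% interval −0.74 to 0.81), XBP1 by −0.10 (−0.71 to 0.50) and LSM3 by −0.04 (−0.48 to 0.39). For FANCD2 the difference was −0.43 (−1.15 to 0.29), and for MARCO it was 0.20 (−2.03 to 2.44). The median size of the label difference was 0.17 over the 79 higher genes (median SE 0.32) and 0.37 over the 222 lower genes (median SE 0.57). The 5 shared genes of smallest p for this contrast were all falls. FAM13C stood at −4.97 from normal in the T-cell and −2.63 in the B-cell label (adjusted p of the difference 0.91). In the B-cell and the T-cell label, SHE stood at −4.23 and −2.43 and TPC3 at −4.42 and −2.14. LRIG3 stood at −2.68 and −1.41, and FRZB, a secreted Wnt antagonist, at −2.46 and −1.53. FAM13C and TPC3 were under a signal of 100 in every lymphoma. SHE was under it in all but FS22 (6.76) and LRIG3 in all but FS21 (6.77) and FS22 (7.02). FRZB was under it in every array of the B-cell label. All 5 label differences thus rest wholly or partly on values near background, and none of them passed the adjustment.

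Within the shared set, the lymphoma nearest to the normals varied from gene to gene. Every lymphoma is separated in these genes by definition, so the counts below cannot show whether 1 lymphoma set the membership. Membership changed when single lymphomas were left out. Without NE42, 206 genes were called and separated, 199 of them among the 301. Without RB07, 388 genes were, 285 of them among the 301. The lymphoma nearest to the normals was RB03 for 64 of the 301 genes, RB07 for 60, FS22 for 50 and NE41 for 34, and any other lymphoma for 8 to 26. RB03, RB07 and FS22 were nearest mainly among the falls, at 49, 48 and 45 of 222 genes, and NE41 among the rises, at 18 of 79. The median difference over the falls was −1.75 in RB03, −1.88 in RB07 and −1.93 in FS22, against −2.39 to −2.98 in the other 7. Over the rises it ran from 1.03 in NE41 to 1.65 in FS21. Of the 36 called genes that were not separated, RB03 overlapped the normals in 9, NE41 in 8 and RB16 in 6. Among the normals, dog 3024 was nearest to the lymphomas in 136 of the 301 genes, dog 63 in 121 and dog 2970 in 44.

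Within the Beagle breed the comparison rests on FS22 alone and has no test. For FANCD2 the difference from the mean of the normal Beagles was 2.28 in FS22 and 2.25 over the other 9 lymphomas. For PRDM1 it was −3.70 and −3.51, and for C1QB −2.80 and −3.19. MARCO stood at −3.26 in FS22 against −6.67 in the others, CD209 at −3.64 against −7.06 and CCL14 at −4.09 against −6.38, while EMCN stood at −2.51 against −2.22 and CD14 at −0.93 against −0.65. Over the list of node chemokines and follicular dendritic cells FS22 was the lymphoma nearest to normal, at −0.88, with RB03 next at −1.81. Over the macrophage and endothelial lists it was not the nearest. The median over the macrophage genes was −2.33 in FS22, −1.98 in RB03 and −1.32 in RB07, and over the endothelial genes it was −1.53, −1.40 and −1.32.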

How the data were processed

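The authors amplified RNA from the lymph node samples, hybridised it to GeneChip Canine Genome V2.0 Arrays and summarised each probe set with MAS 5.0, scaling each array to a trimmed mean of 500. The deposited values are linear signal intensities, 1 per probe set and array, and log2 was taken here with no further scaling between arrays. Detection calls and sequencing data were not used here, and the batch in which each array was run is not given in the sources used here. Groups follow the titles of the samples. Earlier chemotherapy follows the study's tables.

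Of 43035 probe sets, 29254 had exactly 1 gene symbol and were averaged into 15115 genes on the log2 scale, while 439 had several symbols and 13332 were not listed in the gene table used. The filter kept genes at 100 or more in at least 3 dogs. The gene names are those of the platform annotation, and 14314 of 15156 gene identifiers matched RefSeq. With 1 value per dog, lymphoma was tested against normal in a fit of 2 groups, and B-cell against T-cell in a fit of 3 groups (limma 3.58.1, R 4.3.3, moderated by eBayes, Benjamini-Hochberg adjustment at 0.05). SDs, p-values and intervals reflect the spread between dogs, and the precision is limited by 3 normal dogs. Log2 differences of dim genes are unreliable, so folds use signals raised to at least 100 and are written as bounds.

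On simulated data with 200 of 9216 genes changed, the test of lymphoma against normal found 0 genes changed by 0.5, 2 changed by 1 and 103 changed by 2 on the log2 scale, and that of B-cell against T-cell found 0, 0 and 89.

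The genes named were, among the called and separated, the 12 largest rises and 12 largest falls (signals raised to 100), up to 2 of smallest p per gene list with the member of largest p where the list had a call, 4 lineage markers, the 5 of smallest SD among lymphomas, and the 5 of smallest p between labels. Other genes called in the lists are also given and were added after their values were seen. The comparison and the 29 lists were chosen with earlier results of these data known, so no list is independent evidence. Alternatives were another filter, scaling, probe summary, test, handling of dog 3024, clinic block, chemotherapy and the omission of each dog.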

Additional observations from a re-analysis of the deposited data

Results flagged for a closer look

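Of 158 groups of values tested for a sample far from the rest, 9 had one, and chance gives about 1 in 20. Among the 4 normal arrays, 3024l had a GAPDH 3′ to 5′ ratio of 23.2 with the next at 5.31, a log2 signal of 3.02 for SDC1 with the next at 7.16, and 10.29 for CXCL12 with the next at 11.13. For ORC6, 2970 lay at 8.78, below the next normal at 9.29. Among the 10 lymphomas, RB07 lay far from the rest for MEOX2 (2.35, the next 5.95) and TIMP3 (9.83, the next 8.15), FS25 for CD79A (2.55, the next 7.87) and HSPA4 (5.88, the next 7.76), and RB16 for TNC (4.11, the next 6.34).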

How the results depend on the processing

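Counts of calls moved with the processing. None of the 55 named genes called changed sign in any of the 30 settings that tested it. These genes were chosen for their calls in the same arrays, which made a change of sign unlikely, so this is no check on direction. Against 337 genes called and 301 called and separated, the numbers were 112 and 107 with no filter on signal, 715 and 566 with log2(signal + 50), 918 and 678 with signals raised to at least 100, 708 and 652 over single probe sets, 884 and 524 with the methods' t-test, 1417 and 636 with array weights, 901 and 562 with clinic or colony as a random block, and 199 and 180 with 3024l alone. The mean of linear signals gave 520 called. The cause of these moves was not tested. In the clinic or colony setting all normal dogs form a block of their own, and the estimated correlation within blocks was −0.12. Block and disease cannot be told apart there, so that setting is no check on the place of sampling. Leaving out 1 dog gave 3 to 420 genes called and 3 to 388 called and separated, with separation judged on the remaining dogs. Both counts were lowest without dog 2970 and highest without RB07. Of the 55 named genes 2 were then called without 2970, 18 without dog 63 and 18 without dog 3024. Between the labels, leaving out 1 dog gave 0 to 7 calls, and leaving out the 4 lymphomas after chemotherapy gave 26. All other settings gave counts within 1.5 times of those reported. The share of calls that were higher was 29.7% with each array at its deposited scale, 39.7% with quantile normalization and 27.7% with arrays set to a common median. A fit of all arrays with the dog as a random block could not be fitted, because no correlation could be estimated. No paired analysis was possible because no lymphoma shares a dog with a normal node. Genes near a signal of 100 limit what these arrays show, since 114 of the 222 falls end below it.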

Other observations

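Some further genes were picked singly after their values were seen, and they stand for no group. DNAJB9, a chaperone of the endoplasmic reticulum, had log2 signals of 6.30 to 8.39 in lymphoma and of 9.49 to 10.51 on the normal arrays and fell by 2.55 (adjusted p = 0.0084). SEL1L, which serves degradation at the same membrane, fell by 1.31, LMAN1, a cargo receptor, by 1.66, RRBP1, which binds ribosomes there, by 2.44, TXNDC11 by 1.68 and SSR3, a subunit of the translocon, by 0.97. TENT5C, a poly(A) polymerase of plasma cells, fell by 4.00, and CD38, a surface enzyme abundant on plasma cells, by 2.19. JCHAIN, which joins antibody chains, was below the normals in every lymphoma but was not called (log2 difference −3.23, adjusted p = 0.076).

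Further falls chosen in the same way were SPIC, a transcription factor of iron-recycling macrophages (−2.51), CD86, a costimulatory ligand (−1.80), NFKBIA, an inhibitor of NF-kB (−1.29), HGF, a growth factor of stromal cells (−4.16), VEGFA (−1.71) and ADIPOQ, the fat-cell hormone adiponectin (−3.14). Among the gains, YBX1, an RNA-binding protein, was among the brightest genes, with log2 signals of 14.86 to 15.52 in lymphoma and of 13.82 to 14.14 on the normal arrays, and GMNN, the inhibitor of replication licensing, rose by 1.27.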
